A study of Mus musculus with 71 samples.

Results

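Collagen genes were taken as all gene symbols of the form Col, a number, the letter a and a number. The rule found 44 genes among the 24222 genes of the count tables. Their messenger RNA was measured by sequencing in 9 libraries of mouse embryonic stem (ES) cells. 3 libraries came from cells with the genotype label Ezh1/Ezh2 dKO (dKO), in which both genes are knocked out, 3 from cells labelled as an EZH2 rescue, which re-express wild-type EZH2 (rescue), and 3 from wild-type cells (WT). All 3 groups carry the C57BL/6 strain label and were grown on gelatin in 2i, a medium with inhibitors that hold ES cells in the naive state. The labels do not give the deleted parts of Ezh1 and Ezh2, the promoter of the rescue construct or the number of clones, and nothing in them says that replicates are separate cultures, so p-values measure the spread between these libraries only. Suz12 peaks called in ES cells of another strain, 129B6F1, with the genotype label Suz12 WT, were used as well.

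Collagens are secreted or membrane-bound proteins whose chains wind into triple helices of 3 chains each, and most genes encode 1 chain of a type. Fibrillar types build fibres of skin, bone and cartilage, type IV builds the network of basement membranes, and the others decorate fibres, form filaments or sit in the plasma membrane. Early embryonic cells are known to make basement membrane, while fibrillar collagens are products of connective tissue. Polycomb repressive complex 2 (PRC2) methylates histone H3 at lysine 27 through either Ezh1 or Ezh2, and Suz12 is a core subunit that it needs to be active.

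Libraries held 12457622 to 36009529 counts, and levels are given as CPM (counts divided by library size, scaled by TMM). A level compares groups for 1 gene, not genes with each other, because CPM is not divided by length. Ezh1 stood at 1.80 to 2.34 CPM in dKO, 2.33 to 3.42 CPM in rescue and 47.9 to 53.4 CPM in WT. Ezh2 stood at 191 to 215 CPM in dKO, 549 to 576 CPM in rescue and 308 to 314 CPM in WT, so Ezh2 reads remained in the libraries labelled dKO. ES cell genes were high in all groups, with 7 markers summing to 4999 to 5219 CPM in dKO, 6772 to 6826 CPM in rescue and 5783 to 5943 CPM in WT. The third dKO library stood apart from the other dKO libraries. Their chi-square per degree of freedom over genes was 23.8 and 23.9, against 2.21 to 12.1 for the other pairs of replicates. Without it, 24 of the 24 collagen calls of dKO against WT and 23 of the 24 of rescue against dKO were kept, and the largest move of a log2 fold change was 0.42.

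Of the 44 collagen genes, 29 passed the filter on low counts and were tested. The filter keeps a gene with enough counts in the libraries of 1 group, so a gene high in dKO alone can pass. With rescue and WT fitted alone, 20 collagen genes and 13197 of all genes passed. Col4a5, Col4a6, Col6a1, Col6a2, Col8a2, Col15a1, Col16a1, Col23a1 and Col25a1 did not pass there and entered through their dKO counts. All of them rose in dKO against WT and fell in rescue against dKO, which the filter made likely beforehand. The calls and medians below include them. The other gene lists below went through the same filter, so genes high in dKO alone can enter them too. A gene was called at an adjusted p under 0.05 in edgeR's quasi-likelihood test, with Benjamini-Hochberg adjustment over all 14145 genes tested, and log2 fold changes carry the standard error (SE) of that fit. In dKO against WT, 23 collagen genes rose and 1 fell, while 33.7% of all tested genes rose and 31.0% fell. The 23 include all the genes named above that entered through their dKO counts. The median log2 fold change of the 29 was 2.39, against -0.00 over all tested genes. In rescue against dKO, 2 collagen genes rose and 22 fell, while 32.1% of all tested genes rose and 38.2% fell, and the medians were -1.63 for the 29 and -0.04 for all genes. In rescue against WT, 9 collagen genes rose and 5 fell, while 26.8% of all tested genes rose and 27.3% fell, and the medians were 0.20 and 0.00. The 3 comparisons share libraries, so they are not independent of each other. In bulk RNA, fewer cells of a type and less RNA per cell cannot be told apart, nor can more of either.

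**Figure D1:**
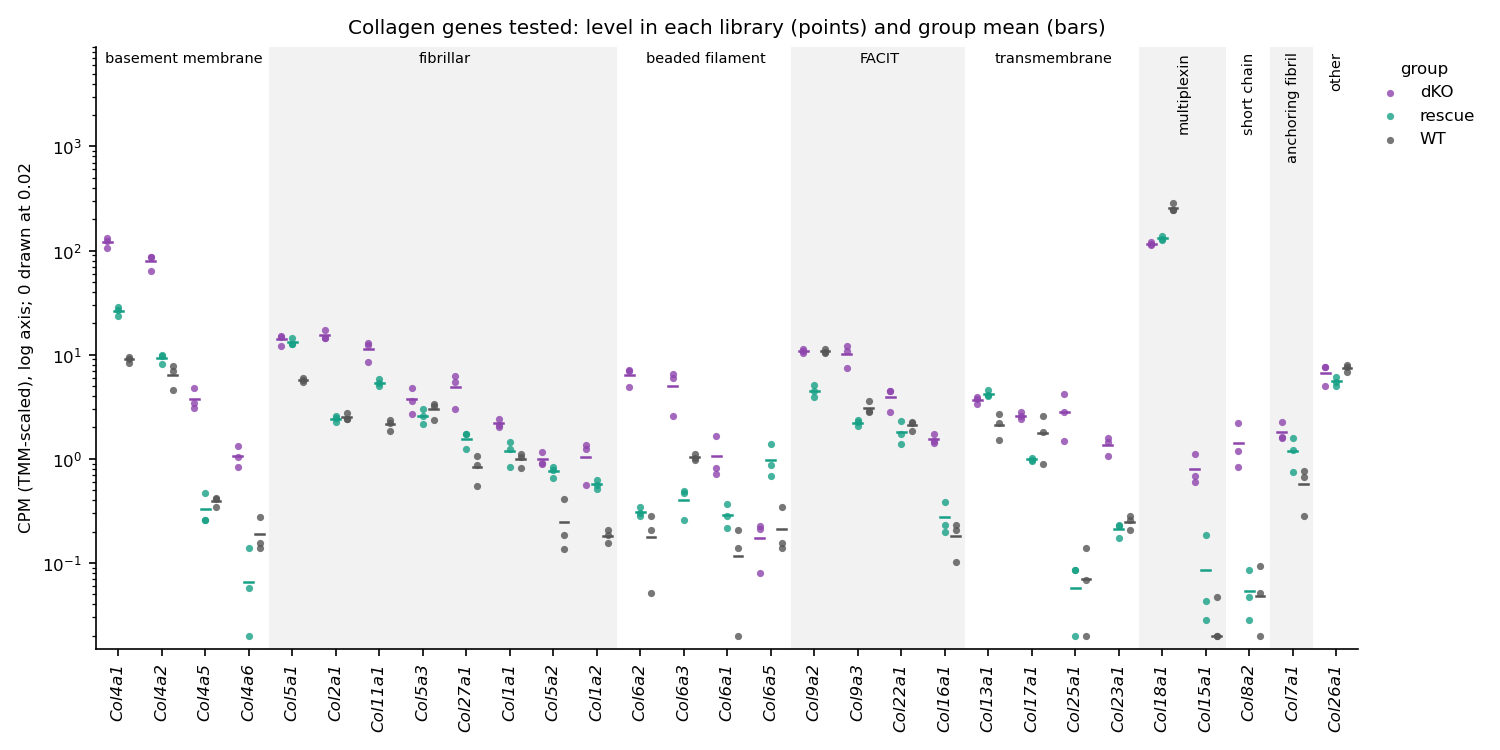
Level of each of the 29 tested collagen genes in CPM (log axis, values of 0 drawn at 0.02), with 1 point per library, 3 libraries per group, and a bar at the group mean. Genes are grouped by structural class. dKO points lie above WT points for most genes, and Col18a1 is the gene with dKO points, at 113 to 120 CPM, below all WT points, at 246 to 283 CPM.

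**Figure D2:**
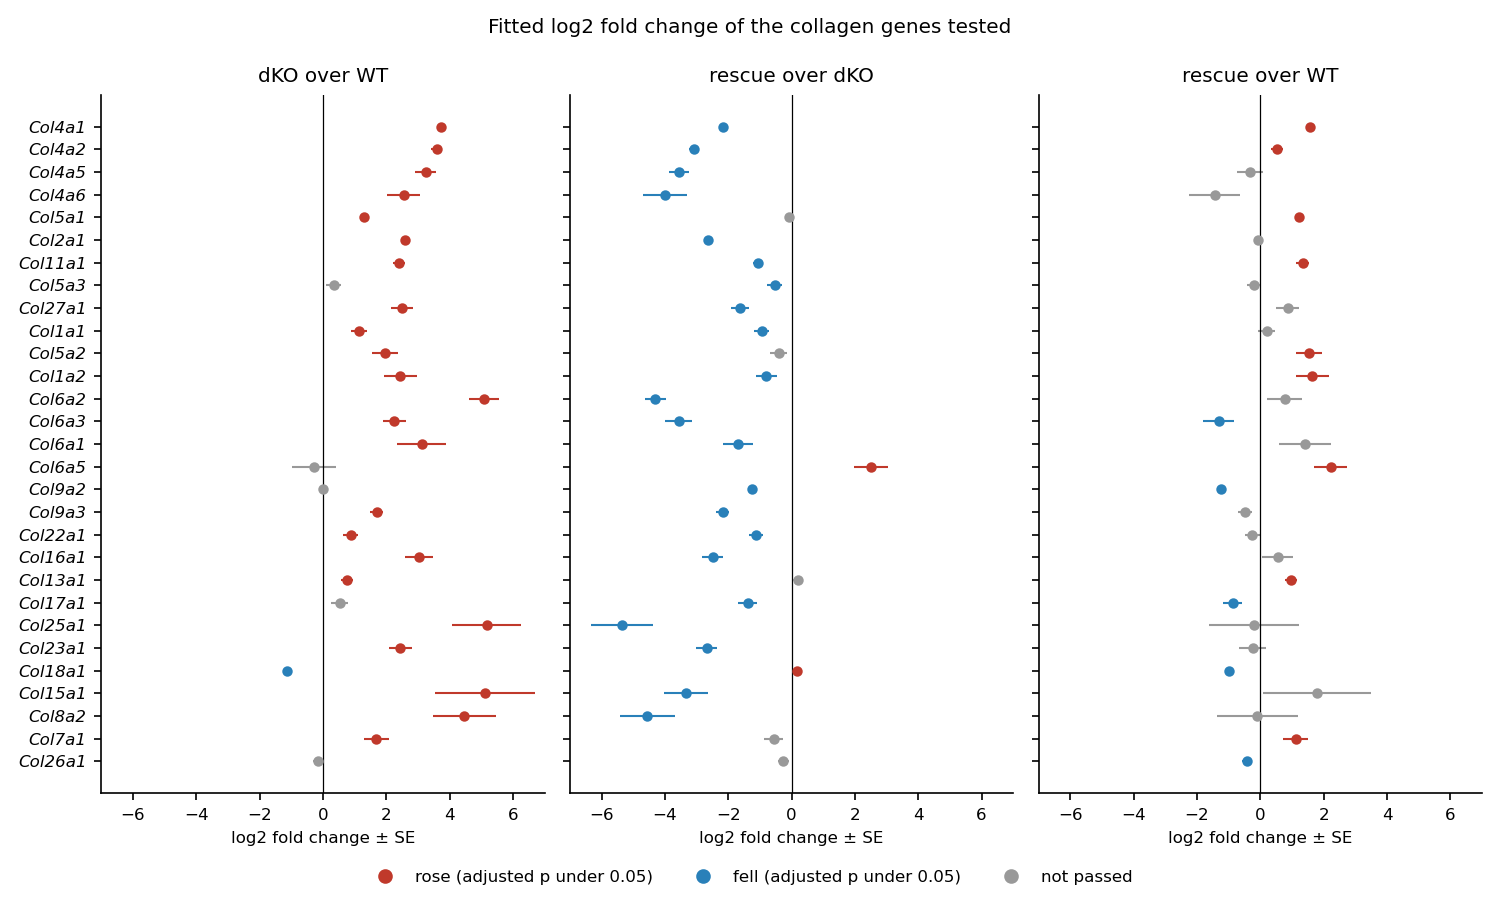
Fitted log2 fold change of the 29 tested collagen genes with its SE, for dKO over WT, rescue over dKO and rescue over WT. Colours mark the call: 23 rose and 1 fell in dKO over WT, 2 rose and 22 fell in rescue over dKO, and 9 rose and 5 fell in rescue over WT.

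The chains of type IV collagen, the network former of basement membranes, made the largest rise in reads. Col4a1 (chr8:11198423-11312889, GRCm38) stood at 124, 132 and 105 CPM in the dKO libraries, 28.6, 23.7 and 27.1 CPM in rescue and 8.40, 9.46 and 9.13 CPM in WT. Its partner Col4a2 (chr8:11312805-11449287), the other chain of the common type IV trimer, stood at 87.2, 86.5 and 64.0 CPM in dKO, 9.72, 9.99 and 8.17 CPM in rescue and 4.54, 6.95 and 7.74 CPM in WT. Both genes had every dKO library above every rescue and WT library, and every rescue library above every WT library. Col4a1 rose in dKO against WT with a log2 fold change of 3.73 ± 0.11 (SE, edgeR, adjusted p = 2.4e-10), and Col4a2 with 3.60 ± 0.17 (edgeR, adjusted p = 1.2e-08).

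In rescue against dKO, Col4a1 fell with a log2 fold change of -2.18 ± 0.10 and Col4a2 with -3.09 ± 0.16 (edgeR, adjusted p = 4.6e-09 and 1.9e-08). Rescue levels stayed above WT for both, with a log2 fold change of 1.55 ± 0.11 for Col4a1 (edgeR, adjusted p = 6.5e-07) and 0.51 ± 0.19 for Col4a2 (edgeR, adjusted p = 0.035). The Col4a2 call against WT was lost, at adjusted p between 0.057 and 0.12, without rescue replicate 1, rescue replicate 2, WT replicate 1 or WT replicate 2. The ratio of reads within the pair was compared as well. The spans of Col4a1 and Col4a2 overlap by 85 bases on opposite strands, and the library kit does not mark strand. Reads of the shared bases therefore cannot be told apart. Col4a1 had 1.43, 1.52 and 1.64 reads for each Col4a2 read in the dKO libraries, 2.94, 2.37 and 3.32 in rescue and 1.85, 1.36 and 1.18 in WT. Every rescue library had a higher ratio than every dKO and WT library. The mean log2 ratio was 1.51 ± 0.25 in rescue, against 0.61 ± 0.10 in dKO and 0.52 ± 0.33 in WT (SD, n = 3 each). Rescue differed by 0.90 from dKO and by 0.99 from WT, each with an exact two-sided permutation p of 0.10, the smallest that 3 against 3 can give, and dKO differed from WT by 0.09 (exact permutation p = 0.80). Adjusted over these 3 comparisons, the p-values were 0.15, 0.15 and 0.80.

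Col4a1 and Col4a2 are transcribed away from each other, and their annotated starts lie 21 bp apart. Their promoter windows, 250 bases before to 50 after the start in RefSeq GRCm38.p6, share 78 bases, and 1 Suz12 peak of 2847 bp (chr8:11311203-11314049) covers both. The 2 windows are shown because this shared start carries the largest rise in collagen reads, and capitals mark CpG dinucleotides, 37 in the Col4a1 window (chr8:11312777-11313076, minus strand) and 33 in the Col4a2 window (chr8:11312555-11312854, plus strand).
Col4a1: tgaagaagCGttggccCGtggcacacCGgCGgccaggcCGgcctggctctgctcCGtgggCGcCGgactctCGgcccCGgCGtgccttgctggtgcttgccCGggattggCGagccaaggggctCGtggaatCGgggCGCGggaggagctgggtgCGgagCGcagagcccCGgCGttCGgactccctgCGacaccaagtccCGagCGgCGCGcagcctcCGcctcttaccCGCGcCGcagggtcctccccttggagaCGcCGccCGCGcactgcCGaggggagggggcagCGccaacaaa
Col4a2: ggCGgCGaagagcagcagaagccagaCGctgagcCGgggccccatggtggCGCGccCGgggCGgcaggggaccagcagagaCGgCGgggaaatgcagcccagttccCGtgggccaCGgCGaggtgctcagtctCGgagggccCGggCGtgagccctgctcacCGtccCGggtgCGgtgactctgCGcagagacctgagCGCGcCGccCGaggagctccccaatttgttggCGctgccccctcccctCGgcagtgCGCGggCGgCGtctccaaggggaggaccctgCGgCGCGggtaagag

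Col4a5 and Col4a6 form a second head-to-head pair, on the X chromosome, with annotated starts 1343 bp apart and no Suz12 peak within 1 kb. Col4a5 (chrX:141475370-141689236) stood at 3.09, 4.74 and 3.43 CPM in dKO, 0.257, 0.467 and 0.259 CPM in rescue and 0.344, 0.420 and 0.412 CPM in WT. Col4a6 (chrX:141165403-141474095) stood at 0.829, 1.32 and 1.04 CPM in dKO, 0.0572, 0.140 and 0 CPM in rescue and 0.275, 0.140 and 0.155 CPM in WT. All dKO libraries lay above all others for both genes, while rescue and WT overlapped. Both rose in dKO against WT, by 3.24 ± 0.33 for Col4a5 and 2.55 ± 0.53 for Col4a6 (log2, edgeR, adjusted p = 1.2e-06 and 3.6e-04). Both fell in rescue against dKO, with log2 fold changes of -3.56 ± 0.32 and -4.00 ± 0.70 (edgeR, adjusted p = 3.5e-07 and 2.0e-05), and neither passed in rescue against WT. The third pair, Col4a3 and Col4a4, whose products join Col4a5 in the basement membrane of the kidney filter, was near 0. Col4a3 had 3 counts in all dKO libraries, 1 in rescue and 2 in WT, and Col4a4 had 1, 0 and 0, which is too few to test.

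Type IV collagen is a known product of parietal endoderm, and the markers of that cell type were mixed. Of 10 parietal and primitive endoderm markers, 7 rose and 2 fell in dKO against WT, beside 33.7% and 31.0% of all tested genes. Gata6, a transcription factor of primitive endoderm, stood at 9.39 to 15.1 CPM in dKO, 0.420 to 0.519 CPM in rescue and 0.344 to 0.839 CPM in WT, and Dab2, an endocytic adaptor, at 8.44 to 26.5 CPM in dKO, 2.24 to 2.94 CPM in rescue and 0.551 to 0.979 CPM in WT. The summed level of the list went the other way, with 1602 to 1726 CPM in dKO, 3057 to 3090 CPM in rescue and 2364 to 2540 CPM in WT, and Sparc and Lamc1, its most abundant members, fell in dKO against WT and rose in rescue against dKO. Lama1, a laminin chain, did not pass in dKO against WT, and Sox17, a transcription factor of endoderm, rose there but did not pass in rescue against dKO. No marker of the list was at 0 in all libraries. The part of these markers in the type IV result was not tested.

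Fibrillar collagens, the fibre-forming types, rose in 7 of the 8 tested genes in dKO against WT, and none fell. Of all tested genes, 33.7% rose and 31.0% fell there. Col2a1, the main collagen of cartilage (chr15:97975602-98004724), stood at 17.2, 14.3 and 14.5 CPM in dKO, 2.49, 2.24 and 2.55 CPM in rescue and 2.41, 2.75 and 2.42 CPM in WT. The dKO libraries lay above all others and the rescue libraries among those of WT. Col2a1 rose by 2.59 ± 0.14 (log2, edgeR, adjusted p = 1.4e-08) in dKO against WT, fell by 2.65 ± 0.13 in rescue against dKO (edgeR, adjusted p = 7.3e-09), and did not pass in rescue against WT, with -0.06 ± 0.15. Col11a1, which co-assembles with Col2a1 in cartilage fibrils (chr3:114030479-114220756), stood at 12.4, 12.9 and 8.46 CPM in dKO, 5.0, 5.79 and 5.40 CPM in rescue and 2.34, 1.86 and 2.22 CPM in WT.

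The 3 groups of Col11a1 did not overlap. It rose in dKO against WT by 2.39 ± 0.19, fell in rescue against dKO by 1.05 ± 0.16, and rose in rescue against WT by 1.34 ± 0.20 (log2, edgeR, adjusted p = 4.7e-07, 9.7e-05 and 1.4e-04). Genes tested on chromosome 3 had a median log2 fold change of -0.43 in rescue against dKO and -0.40 in rescue against WT, and those within 10 Mb of Col11a1 had -0.59 and -0.50. The part of this chromosome-wide shift in the rescue values of Col11a1, and of Col25a1 on the same chromosome, was not tested. Col27a1, a fibrillar chain of cartilage, stood at 5.50, 6.27 and 3.03 CPM in dKO, 1.72, 1.73 and 1.25 CPM in rescue and 0.551, 1.07 and 0.877 CPM in WT. It rose by 2.50 ± 0.34 in dKO against WT and fell by 1.63 ± 0.28 in rescue against dKO (log2, edgeR, adjusted p = 2.7e-05 and 2.1e-04). Every rescue library of Col27a1 lay above every WT library, but rescue against WT did not pass (0.87 ± 0.36, edgeR, adjusted p = 0.056).

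Type V collagen, which starts and limits the growth of type I fibrils, had rescue levels among or near those of dKO in 2 of its 3 chains. Col5a1 (chr2:27886381-28039510) stood at 15.1, 14.9 and 12.1 CPM in dKO, 14.4, 12.7 and 12.7 CPM in rescue and 5.92, 5.41 and 5.67 CPM in WT, so dKO and rescue overlapped and both lay above WT. Its log2 fold change was 1.30 ± 0.12 in dKO against WT and 1.24 ± 0.12 in rescue against WT (edgeR, adjusted p = 1.9e-06 and 6.8e-06), while rescue against dKO gave -0.07 ± 0.11 and did not pass (edgeR, adjusted p = 0.59). Col5a2, its partner chain, showed 0.904, 0.896 and 1.16 CPM in dKO, 0.657, 0.841 and 0.778 CPM in rescue and 0.138, 0.186 and 0.412 CPM in WT. It rose by 1.96 ± 0.41 in dKO and by 1.55 ± 0.41 in rescue, each against WT (log2, edgeR, adjusted p = 5.7e-04 and 0.0045), and rescue against dKO did not pass (-0.41 ± 0.28, edgeR, adjusted p = 0.21). Col5a3, the third chain, stood at 2.71, 3.63 and 4.83 CPM in dKO, 3.03, 2.15 and 2.59 CPM in rescue and 2.34, 3.36 and 3.25 CPM in WT. All its groups overlapped, and its call in rescue against dKO, -0.54 ± 0.22 at adjusted p = 0.045 by edgeR, was lost under 8 of the alternatives tried, with dKO replicates 2 and 3 and rescue replicates 2 and 3 among the libraries left out and adjusted p up to 0.19.

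Type I collagen, the fibre of skin and bone, was low in every group. Col1a1 stood at 2.03, 2.09 and 2.44 CPM in dKO, 0.829, 1.45 and 1.25 CPM in rescue and 1.03, 1.12 and 0.825 CPM in WT. Col1a2 stood at 1.36, 1.24 and 0.559 CPM in dKO, 0.629, 0.514 and 0.562 CPM in rescue and 0.207, 0.186 and 0.155 CPM in WT. Both rose in dKO against WT, by 1.15 ± 0.26 and 2.44 ± 0.51 (log2, edgeR, adjusted p = 0.0016 and 4.5e-04). Col1a2 also rose in rescue against WT, by 1.64 ± 0.53 (edgeR, adjusted p = 0.012). Its call in rescue against dKO, -0.80 ± 0.33 at adjusted p = 0.046 by edgeR, was lost under 9 of the alternatives, among them each of dKO replicates 1 and 2 and rescue replicates 1, 2 and 3 left out, with adjusted p up to 0.20.

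Col3a1, the type III fibre of vessels and skin, had no count outside 1 rescue library, which held 1 count. Its promoter window (chr1:45311288-45311587, plus strand, RefSeq GRCm38.p6) is shown as that of an almost silent fibrillar gene. It holds 0 CpG dinucleotides, so no letters are in capitals.
Col3a1: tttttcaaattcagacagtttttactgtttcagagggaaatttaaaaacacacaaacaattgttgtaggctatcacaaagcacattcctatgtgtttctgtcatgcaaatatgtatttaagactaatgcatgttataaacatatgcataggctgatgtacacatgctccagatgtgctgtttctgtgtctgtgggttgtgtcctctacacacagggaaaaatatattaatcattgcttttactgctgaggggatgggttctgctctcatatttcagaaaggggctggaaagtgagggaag
Col11a2 had 13 counts in dKO, 8 in rescue and 1 in WT, and Col24a1 had 7, 2 and 1. The ratio of dKO to WT was 12.8 for Col11a2 (95% interval 1.92 to 544, exact, from the counts) and 6.90 for Col24a1 (0.886 to 311).

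Genes of connective tissue other than collagens gave a mixed picture. Their counts stand beside 33.7% of all tested genes that rose and 31.0% that fell in dKO against WT. Of 10 fibroblast markers, 5 were tested, and 4 rose and Vim fell in dKO against WT. Their sum was 60.7 to 83.0 CPM in dKO, 145.5 to 150.2 CPM in rescue and 339.6 to 358.3 CPM in WT, and S100a4 and Lum had 0 counts in all libraries. Vim carried this sum, and without it the other 9 markers summed to 45.2 to 52.7 CPM in dKO, 13.1 to 13.9 CPM in rescue and 8.04 to 8.77 CPM in WT, the opposite order. In dKO, Thy1 and Pdgfrb carried this second sum. Thy1 had means of 29.9 CPM in dKO, 1.6 CPM in rescue and 1.8 CPM in WT, and Pdgfrb 13, 6.84 and 3.61 CPM. Of 8 cartilage and bone markers, 3 were tested and 3 rose: Acan, the core protein of cartilage aggrecan, with 19.8 to 32.8 CPM in dKO, 5.86 to 6.54 CPM in rescue and 5.32 to 6.45 CPM in WT, and the transcription factors Sox6 and Sox9. Their sum was 26.5 to 38.6 CPM in dKO, 8.92 to 10.4 CPM in rescue and 7.23 to 8.66 CPM in WT, and Ibsp had 0 counts. Of 6 smooth muscle markers, 2 of the 3 tested rose, and the list summed to 3.84 to 6.15 CPM in dKO, 1.34 to 1.69 CPM in rescue and 0.699 to 0.877 CPM in WT. The part of these cells in the collagen values was not tested.

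Type VI collagen, which forms beaded microfilaments around cells, rose in its 3 classical chains in dKO against WT. Col6a2 (chr10:76595756-76623630) stood at 7.01, 7.12 and 4.91 CPM in dKO, 0.343, 0.280 and 0.303 CPM in rescue and 0.207, 0.280 and 0.0516 CPM in WT. Its log2 fold change was 5.08 ± 0.48 in dKO against WT and -4.30 ± 0.33 in rescue against dKO (edgeR, adjusted p = 1.0e-07 and 8.1e-08), and rescue against WT did not pass. Col6a1 (chr10:76708792-76726044) stood at 1.66, 0.811 and 0.719 CPM in dKO, 0.372, 0.280 and 0.216 CPM in rescue and 0.207, 0.140 and 0 CPM in WT, with dKO above both other groups. It rose by 3.12 ± 0.77 in dKO against WT and fell by 1.70 ± 0.48 in rescue against dKO (log2, edgeR, adjusted p = 7.7e-04 and 0.0054).

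Col6a3, the long chain of the type VI trimer, stood at 6.03, 6.53 and 2.56 CPM in dKO, 0.486, 0.467 and 0.259 CPM in rescue and 1.10, 1.03 and 0.980 CPM in WT. The dKO libraries were the highest and the rescue libraries the lowest, with no overlap. It rose by 2.26 ± 0.37 in dKO against WT and fell by 3.57 ± 0.43 in rescue against dKO (log2, edgeR, adjusted p = 1.4e-04 and 5.6e-06). In rescue against WT it fell by 1.31 ± 0.49 (log2, edgeR, adjusted p = 0.036), a call that was lost when any one of the 6 rescue and WT libraries was left out, with adjusted p of 0.057 to 0.10. The alternative chains of type VI were set apart. Col6a5 stood at 0.226, 0.213 and 0.0799 CPM in dKO, 0.686, 1.40 and 0.865 CPM in rescue and 0.344, 0.140 and 0.155 CPM in WT, so it was high in rescue alone among the 3 groups. It rose by 2.51 ± 0.55 in rescue against dKO and by 2.22 ± 0.53 in rescue against WT (log2, edgeR, adjusted p = 4.6e-04 and 0.0017), and dKO against WT did not pass. Genes within 10 Mb of Col6a5 had a median log2 fold change of 0.13 in rescue against dKO and 0.27 in rescue against WT.

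Col6a4 had 30 counts in dKO, 28 in rescue and 16 in WT and was not tested. Col6a6 had 16 counts in dKO, 3 in rescue and 0 in WT. Taking 3 counts as the limit for the WT libraries together and the 16 dKO counts as exact, Col6a6 was at least 5.25-fold higher in dKO. The ratio of rescue to dKO was 0.133 (95% interval 0.0248 to 0.464). The windows of Col6a2 are shown because it had the largest change among collagen genes with no Suz12 peak at the start. Capitals mark CpG, of which the window chr10:76623355-76623654 holds 16 and the window chr10:76623581-76623880 of a second annotated start holds 6, both on the minus strand of GRCm38.p6.
Col6a2, downstream start: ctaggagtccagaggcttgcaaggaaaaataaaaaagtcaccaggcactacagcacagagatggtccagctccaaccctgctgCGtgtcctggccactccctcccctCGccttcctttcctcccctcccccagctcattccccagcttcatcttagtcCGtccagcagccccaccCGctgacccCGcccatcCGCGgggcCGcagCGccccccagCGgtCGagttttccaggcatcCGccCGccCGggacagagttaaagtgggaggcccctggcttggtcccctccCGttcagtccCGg
Col6a2, upstream start: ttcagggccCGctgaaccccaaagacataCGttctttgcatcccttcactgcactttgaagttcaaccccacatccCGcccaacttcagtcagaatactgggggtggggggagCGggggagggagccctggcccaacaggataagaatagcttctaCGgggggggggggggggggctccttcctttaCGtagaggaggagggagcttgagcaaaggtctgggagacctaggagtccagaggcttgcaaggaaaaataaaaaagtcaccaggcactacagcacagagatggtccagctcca

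Collagens that attach to fibrils (the FACIT class) were split. Col9a3, a chain of the type IX trimer on cartilage fibrils, stood at 10.8, 12.2 and 7.51 CPM in dKO, 2.26, 2.33 and 2.08 CPM in rescue and 2.82, 2.89 and 3.61 CPM in WT. It rose by 1.69 ± 0.19 in dKO against WT and fell by 2.18 ± 0.19 in rescue against dKO (log2, edgeR, adjusted p = 9.0e-06 and 8.9e-07). Col9a3 shares 237 bases of its span with Tcfl5, at 59.0 CPM in dKO, 26.6 CPM in rescue and 18.4 CPM in WT, and the library kit does not mark strand, so reads of the shared bases cannot be told apart. Col9a2, the partner chain, followed another course, with 10.8, 11.3 and 10.5 CPM in dKO, 5.14, 4.48 and 3.93 CPM in rescue and 10.4, 10.7 and 11.3 CPM in WT.

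The dKO and WT libraries of Col9a2 overlapped and all rescue libraries lay below them. Its log2 fold change in dKO against WT was 0.00 ± 0.11, and in rescue it was -1.25 ± 0.12 against dKO and -1.25 ± 0.12 against WT (edgeR, adjusted p = 1.7e-06 and 5.6e-06). Col9a1, the third chain, had 7 counts in dKO and 0 in rescue and WT. That makes it at least 2.30-fold higher in dKO than in WT if the 7 counts are taken as exact. Col22a1, found at tissue junctions, stood at 4.52, 4.48 and 2.83 CPM in dKO, 1.72, 2.29 and 1.38 CPM in rescue and 1.86, 2.19 and 2.27 CPM in WT. It rose by 0.87 ± 0.24 in dKO against WT and fell by 1.12 ± 0.23 in rescue against dKO (log2, edgeR, adjusted p = 0.0060 and 8.5e-04). Col16a1 stood at 1.73, 1.41 and 1.48 CPM in dKO, 0.20, 0.234 and 0.389 CPM in rescue and 0.207, 0.233 and 0.103 CPM in WT. It rose by 3.03 ± 0.43 and fell by 2.49 ± 0.33 in the same 2 comparisons (log2, edgeR, adjusted p = 1.4e-05 and 1.5e-05).

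All 4 transmembrane collagens were tested. Col25a1, a neuronal type with a role in motor nerve growth (chr3:130180358-130599884), stood at 2.79, 4.18 and 1.48 CPM in dKO, 0.0858, 0 and 0.0865 CPM in rescue and 0.0689, 0.140 and 0 CPM in WT. It rose by 5.17 ± 1.09 in dKO against WT and fell by 5.36 ± 0.98 in rescue against dKO (log2, edgeR, adjusted p = 3.1e-05 and 1.1e-05). Col23a1 stood at 1.05, 1.45 and 1.60 CPM in dKO, 0.229, 0.234 and 0.173 CPM in rescue and 0.207, 0.280 and 0.258 CPM in WT. It rose by 2.45 ± 0.35 and fell by 2.69 ± 0.33 (log2, edgeR, adjusted p = 2.4e-05 and 5.9e-06).

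Col13a1, a collagen of the neuromuscular junction, lay above WT in rescue as in dKO. It stood at 3.77, 3.37 and 3.91 CPM in dKO, 4.54, 4.06 and 4.02 CPM in rescue and 1.51, 2.19 and 2.68 CPM in WT. Both dKO and rescue lay above WT, with log2 fold changes of 0.76 ± 0.19 and 0.96 ± 0.19 (edgeR, adjusted p = 0.0040 and 9.9e-04). Col17a1, a component of hemidesmosomes in epithelia, stood at 2.41, 2.82 and 2.56 CPM in dKO, 1.03, 0.981 and 0.951 CPM in rescue and 0.895, 1.82 and 2.58 CPM in WT. It fell by 1.39 ± 0.29 in rescue against dKO (log2, edgeR, adjusted p = 8.4e-04). Its call in rescue against WT, -0.87 ± 0.30 at adjusted p = 0.028 by edgeR, was lost without rescue replicate 1, 2 or 3 or WT replicate 2 or 3, with adjusted p of 0.061 to 0.18.

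The multiplexins Col15a1 and Col18a1, proteoglycan collagens of basement membrane zones, moved in opposite directions. Col18a1 (chr10:77052178-77166530), the source of endostatin, was the gene with the most collagen reads in WT: 113, 116 and 120 CPM in dKO, 136, 126 and 130 CPM in rescue and 246, 246 and 283 CPM in WT. The dKO and rescue libraries all lay below the WT libraries. It fell in dKO against WT by 1.15 ± 0.07 and in rescue against WT by 0.98 ± 0.07 (log2, edgeR, adjusted p = 3.8e-08 and 4.5e-07). In rescue against dKO it rose by 0.17 ± 0.07 (log2, edgeR, adjusted p = 0.042), a call lost without dKO replicate 1 or 2 or rescue replicate 1 or 3, with adjusted p up to 0.14. Col15a1 stood at 0.603, 1.11 and 0.679 CPM in dKO, 0.0286, 0.187 and 0.0432 CPM in rescue and 0, 0.0466 and 0 CPM in WT. That is 51 counts in dKO, 6 in rescue and 1 in WT, a ratio of 50.2 for dKO over WT (95% interval 8.62 to 2020, exact, from the counts), and it rose in dKO against WT and fell in rescue against dKO (edgeR, adjusted p = 1.3e-04 and 1.9e-04).

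Col8a2, a short-chain collagen of the network under the corneal endothelium (chr4:126286794-126314330), stood at 2.19, 1.2 and 0.838 CPM in dKO, 0.0286, 0.0467 and 0.0865 CPM in rescue and 0, 0.0932 and 0.0516 CPM in WT. Its 78 counts in dKO and 3 in WT gave a ratio of 25.6 (95% interval 8.45 to 127). It rose in dKO against WT and fell in rescue against dKO, with a log2 fold change of -4.55 ± 0.87 in the second (edgeR, adjusted p = 6.4e-05 and 2.2e-05). Its partner Col8a1 had 6 counts in dKO, 1 in rescue and 0 in WT, and Col10a1, a marker of hypertrophic cartilage, had 6, 3 and 6. Col10a1 lies within the span of Nt5dc1, which stood at 28.1 CPM in dKO, 40.5 CPM in rescue and 38.3 CPM in WT.

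The windows of Col25a1 and Col8a2 are shown as those of 2 genes with a Suz12 peak over the start and a large fitted change, with 23 and 32 CpG dinucleotides in capitals. The Col25a1 window is chr3:130180595-130180894 and the Col8a2 window chr4:126286544-126286843, both on the plus strand of GRCm38.p6, and the peak covers 100% of each.
Col25a1: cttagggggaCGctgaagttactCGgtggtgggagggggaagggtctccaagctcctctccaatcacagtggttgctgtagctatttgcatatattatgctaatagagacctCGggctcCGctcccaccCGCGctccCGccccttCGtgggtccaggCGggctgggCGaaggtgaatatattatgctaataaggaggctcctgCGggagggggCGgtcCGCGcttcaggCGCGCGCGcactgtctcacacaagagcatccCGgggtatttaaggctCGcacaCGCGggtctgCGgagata
Col8a2: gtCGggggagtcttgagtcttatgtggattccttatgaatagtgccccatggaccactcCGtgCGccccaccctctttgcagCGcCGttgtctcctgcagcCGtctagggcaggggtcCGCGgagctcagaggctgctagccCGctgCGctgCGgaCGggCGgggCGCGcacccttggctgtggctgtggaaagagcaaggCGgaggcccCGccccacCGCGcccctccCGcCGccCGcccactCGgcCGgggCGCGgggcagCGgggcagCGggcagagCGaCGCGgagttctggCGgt

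Col7a1, the collagen of the anchoring fibrils under the epidermis, stood at 2.26, 1.62 and 1.60 CPM in dKO, 1.23, 0.747 and 1.60 CPM in rescue and 0.757, 0.280 and 0.670 CPM in WT. It rose by 1.69 ± 0.39 in dKO against WT (log2, edgeR, adjusted p = 0.0017). In rescue against WT it rose by 1.13 ± 0.40 (log2, edgeR, adjusted p = 0.025), a call lost without rescue replicate 1 or 3 or WT replicate 2, with adjusted p up to 0.13. Genes within 10 Mb of it had a median of 0.33 in that comparison. Col26a1 stood at 7.68, 7.55 and 4.95 CPM in dKO, 6.06, 5.51 and 5.01 CPM in rescue and 7.64, 6.81 and 7.89 CPM in WT. It did not pass in dKO against WT, and its call in rescue against WT, -0.42 ± 0.17 at adjusted p = 0.0497 by edgeR, was lost when any one of the 6 libraries of the 2 groups was left out, with adjusted p of 0.060 to 0.15.

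The 15 untested genes held little RNA in any group, at most 0.683 CPM in a library. Beside those already named they include the FACIT genes Col12a1, with 18 counts in dKO, 4 in rescue and 1 in WT, Col14a1 with 14, 19 and 6, Col20a1 with 14, 23 and 9, and Col19a1 with 1, 0 and 0. The dKO to WT ratio of Col12a1 was 17.7 (95% interval 2.80 to 739). Col28a1 had 0 counts in all 9 libraries, which allows up to 0.0833 CPM in the deepest library and 0.241 CPM in the shallowest. The number of collagen genes with any count was 38 to 40 per library in dKO, 32 to 39 in rescue and 31 to 33 in WT. Such numbers can depend on depth. The deepest library, rescue replicate 1, had 39 and rescue replicate 2 had 32, while the shallowest, dKO replicate 1, had 38. The same number over all genes was not counted.

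Col18a1 held more collagen reads than any other gene in every rescue and WT library and in dKO replicate 3, with 120 CPM beside 105 CPM for Col4a1, while Col4a1 was ahead in dKO replicates 1 and 2. Collagen genes summed to 437 ± 40.9 CPM in dKO, 219 ± 9.43 CPM in rescue and 320.5 ± 25.5 CPM in WT (SD, n = 3 each). Without Col18a1 the sums were 320.4 ± 43.7 CPM in dKO, 88.2 ± 4.25 CPM in rescue and 62.4 ± 4.74 CPM in WT. Col18a1 held 24.9% to 30.7% of collagen reads in dKO, 59.4% to 60.3% in rescue and 79.7% to 81.1% in WT. Col4a1 and Col4a2 together held 43.3% to 46.8% in dKO, 15.9% to 16.7% in rescue and 4.27% to 5.32% in WT. No group overlapped another in either share. These are shares of reads, which longer transcripts enter more often.

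**Figure D3:**
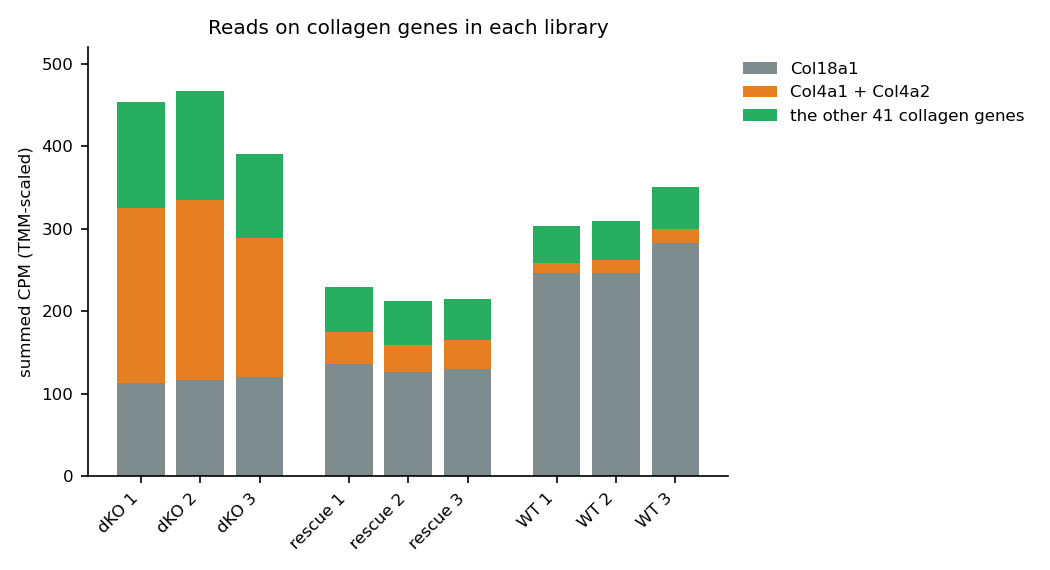
Summed CPM of the 44 collagen genes in each library, stacked by Col18a1, the pair Col4a1 and Col4a2, and the other 41 genes, with 3 libraries per group. Col18a1 takes 24.9% to 30.7% of the bar in dKO, 59.4% to 60.3% in rescue and 79.7% to 81.1% in WT.

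In wild-type 129B6F1 cells, 17 of the 44 collagen genes had a Suz12 peak within 1 kb of an annotated start, or of either end for the 9 genes with no annotated start in the promoter table. Of all 22859 placed genes 20.6% had one. The 17 were Col2a1, Col4a1, Col4a2, Col5a1, Col8a2, Col9a3, Col12a1, Col13a1, Col14a1, Col15a1, Col16a1, Col18a1, Col19a1, Col23a1, Col25a1, Col26a1 and Col27a1. The widest was that of Col2a1, with 4064 bp at one end of the gene (chr15:98000829-98004892), and the narrowest that of Col18a1, with 534 bp, which began 556 bp inside the gene. The strain, the labelled genotype and the library type of that sample differ from those of the RNA libraries.

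Collagen genes rose both with and without a peak under this rule. Among the tested genes with a peak, Col2a1, Col9a3 and Col26a1 had no annotated start. Their peak lies near an end of the gene that may not be its start. Of the 14 tested with a peak, 12 rose and 1 fell in dKO against WT, with a median log2 fold change of 2.54. Of the 15 tested without a peak, 11 rose and 0 fell, with a median of 1.96. Over all placed genes tested, 58.9% of those with a peak and 24.5% of those without rose. The 3 bound genes that were not tested, Col12a1, Col14a1 and Col19a1, had at most 0.377 CPM in a library. Members without a peak include Col6a1, Col6a2, Col6a3, Col4a5 and Col4a6, whose fitted log2 fold changes in dKO against WT ran between 2.26 and 5.08. All of these but Col6a3 entered the test through their dKO counts, so a rise was nearly built in. Among genes with a peak, the same holds for Col8a2, Col15a1, Col16a1, Col23a1 and Col25a1. The counts and medians of both sets include such genes.

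**Figure D4:**
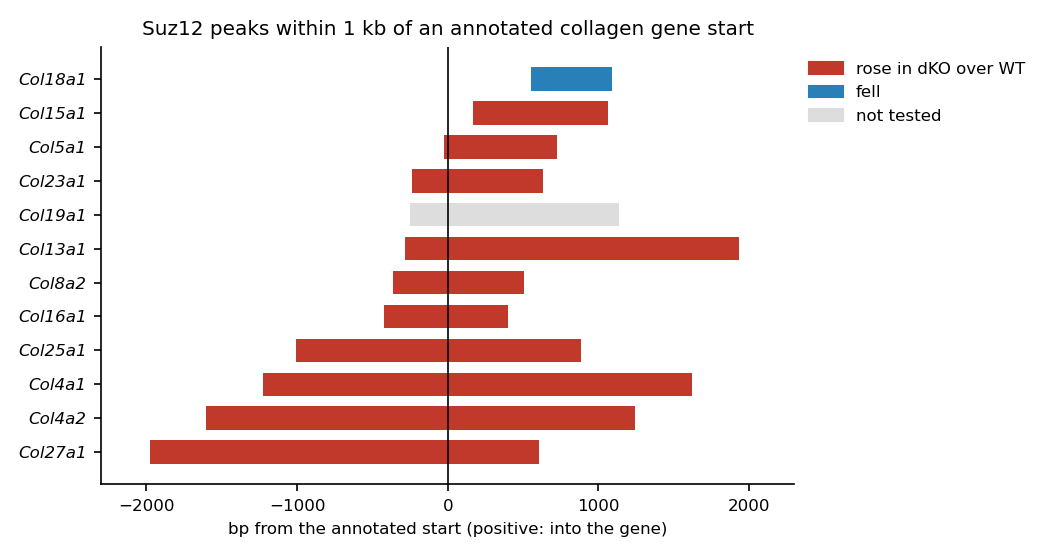
Extent of the Suz12 peak in bp from the annotated start, positive into the gene, for the 12 collagen genes with an annotated start and a peak within 1 kb of it. Bars cross the start line except those of Col15a1, which begins at 167 bp, and Col18a1, which begins at 556 bp. Colour gives the call in dKO over WT.

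The promoter table held 38 starts of 35 collagen genes. Starts with a peak within 1 kb had a median of 24 CpG dinucleotides in the 300-base window (12 starts), and starts without one had 6 (26 starts). Over all promoters of the table the medians were 24 with a peak and 5 without. Col5a1, with 34 CpG, and Col4a1, with 37, lay at the top among collagen genes with a peak, and Col15a1, with 8, at the bottom. On either strand, GGGCGG, the core of a GC box, was found in 23 of the 38 windows, or 60.5%, against 35.7% of all promoters. CCAAT was found in 13, or 34.2%, against 37.4%, and TATAAA in 5, or 13.2%, against 13.6%. These matches describe the letters of the window and are not binding sites.

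The genes that make and handle collagen were counted in the same comparisons, beside shares of all tested genes of 33.7% that rose and 31.0% that fell in dKO against WT, 32.1% and 38.2% in rescue against dKO, and 26.8% and 27.3% in rescue against WT. Of the genes for its synthesis in the endoplasmic reticulum, 18 were in the tables and 16 were tested, and 12 rose and 0 fell in dKO against WT. P4ha2, a subunit of the prolyl hydroxylase that stabilises the triple helix, stood at 23.5, 22.0 and 24.2 CPM in dKO, 6.03, 6.12 and 5.66 CPM in rescue and 2.82, 3.64 and 3.20 CPM in WT (log2 fold change dKO over WT 2.84 ± 0.12, edgeR, adjusted p = 2.1e-09). Colgalt2, a galactosyltransferase of hydroxylysine, rose by 3.89 ± 0.43 and the lysyl hydroxylase Plod2 by 1.02 ± 0.10 (log2, edgeR, adjusted p = 1.3e-06 and 2.9e-06), while Ppib, a prolyl isomerase, gave 0.04 ± 0.15 and did not pass. Rescue against dKO gave 1 that rose and 12 that fell, and rescue against WT 5 that rose and 5 that fell. Among these, the collagen chaperone Serpinh1, chosen after its values were seen, stood at 318 to 352 CPM in dKO, 161 to 167 CPM in rescue and 261 to 270 CPM in WT.

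Of the extracellular processing genes, 11 of 13 were tested, and 8 rose and 2 fell in dKO against WT. Loxl2 and Loxl1, which cross-link collagen, rose by 4.46 ± 0.51 and 2.87 ± 0.28 (log2, edgeR, adjusted p = 6.7e-07 and 1.3e-06), and Pcolce2, an enhancer of procollagen cleavage, by 1.33 ± 0.08 (edgeR, adjusted p = 6.3e-08). Pcolce2 stayed high in rescue, at 52.4 to 53.4 CPM, beside 45.5 to 53.2 CPM in dKO and 18.5 to 21.4 CPM in WT. Pcolce, the related enhancer, fell instead, with 7.76, 8.11 and 23.7 CPM in dKO, 159, 143 and 153 CPM in rescue and 90.5, 82.8 and 88.6 CPM in WT (log2 fold change dKO over WT -2.67 ± 0.36, edgeR, adjusted p = 2.6e-04), and the protease gene Tll1 fell as well. Loxl3 did not pass. Rescue cells had 1 that rose and 7 that fell against dKO, and 3 that rose and 1 that fell against WT.

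Of the 7 collagen receptors tested, 5 rose and 1 fell in dKO against WT. Itga11, the integrin chain for fibrillar collagen, stood at 9.04, 8.96 and 8.11 CPM in dKO, 0.143, 0.140 and 0.130 CPM in rescue and 0, 0.0932 and 0 CPM in WT. Its beta partner Itgb1 rose by 0.92 ± 0.06, and Mrc2, a receptor that takes up collagen, by 4.31 ± 0.47 (log2, edgeR, adjusted p = 7.3e-08 and 6.9e-07). Itga10, a receptor of cartilage cells, fell by 2.05 ± 0.28 (log2, edgeR, adjusted p = 4.1e-05), and Ddr2 did not pass. The receptors numbered 0 that rose and 5 that fell in rescue against dKO, and 0 that rose and 3 that fell in rescue against WT.

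All 6 tested genes for collagen-cutting proteases, of 11 listed, rose in dKO against WT. The filter lets in genes high in dKO alone, so such a count is partly built in. Ctsk, among the 6, stood at 0.559 to 0.725 CPM in dKO and at most 0.0934 CPM in a rescue or WT library. The gelatinase Mmp2 stood at 46.5, 46.5 and 31.3 CPM in dKO, 8.43, 8.82 and 8.0 CPM in rescue and 8.54, 8.67 and 10.1 CPM in WT. Mmp9, the other gelatinase, rose by 3.32 ± 0.31 and the membrane protease Mmp14 by 1.07 ± 0.15 (log2, edgeR, adjusted p = 6.4e-07 and 5.0e-05). Against dKO, 0 rose and 5 fell in rescue cells, and against WT, 1 rose and 1 fell. Mmp1a, Mmp8 and Mmp13, the interstitial collagenases, had 0 counts in all libraries.

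Matrix proteins that bind collagen were the least uniform of these lists, with 6 of 13 tested rising and 3 falling in dKO against WT. Thbs1 rose by 4.65 ± 0.42, Matn4 by 3.12 ± 0.29 and Bgn by 2.75 ± 0.34 (log2, edgeR, adjusted p = 1.0e-07, 5.5e-07 and 9.3e-06). The 3 that fell were Fn1, Sparc and Nid2, abundant matrix genes with 1792 to 2381 CPM for Fn1 in dKO, 3398 to 3882 CPM in rescue and 3329 to 3642 CPM in WT. Hspg2, the core protein of perlecan, gave 0.01 ± 0.14 and did not pass. In rescue against dKO, 4 of the 13 rose and 6 fell, near the 32.1% and 38.2% of all genes, and in rescue against WT, 5 rose and 1 fell.

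**Figure D5:**
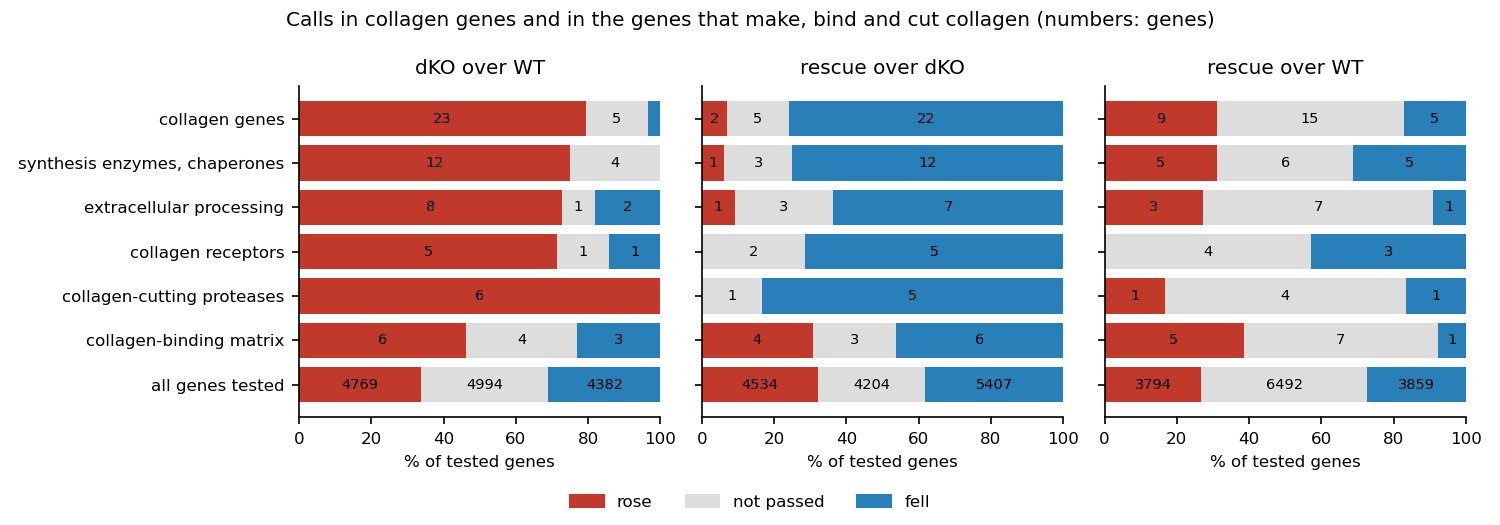
Percentage of tested genes that rose, fell or did not pass, with gene numbers in the bars, for collagen genes, 5 lists of genes that make, process, bind or cut collagen, and all 14145 genes tested. In dKO over WT 23 of 29 collagen genes and 6 of 6 protease genes rose, beside 33.7% of all genes. The filter lets in genes high in dKO alone.

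By pattern over the 3 groups, the 24 collagen genes called in dKO against WT did not share one course in rescue cells. Of the 29 tested genes, those that rose in dKO and stayed called above WT in rescue were Col4a1, Col4a2, Col5a1, Col5a2, Col11a1, Col13a1, Col1a2 and Col7a1. Those that rose in dKO, fell in rescue against dKO and did not pass against WT include Col2a1, Col25a1, Col8a2, Col6a2, Col4a5, Col23a1 and Col16a1. All of these but Col2a1 entered the test through their dKO counts, so the filter largely fixed their pattern. A p that misses the threshold does not show that rescue and WT levels were equal. The genes called lower in rescue against WT were Col18a1, Col9a2, Col6a3, Col17a1 and Col26a1, of which Col18a1 and Col9a2 kept their call under every alternative run. The rescue and WT libraries of Col17a1 overlapped. Those of Col9a3 did not, with every rescue library lower, but Col9a3 did not pass (edgeR, adjusted p = 0.071).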

How the data were processed

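For each RNA library the authors deposited whole-number, unnormalized read counts per gene. Trimmomatic, STAR 2.4.0, HTSeq and the mm10 build come per the submitters' processing notes, and the TruSeq RNA kit, which does not mark strand, per the labels' protocols. Not given in the sources used here are the counting mode, gene annotation and peak caller. The Suz12 list, as deposited by the authors, holds peak coordinates only, with no score. The other 61 ChIP samples, 2 of them with disagreeing labels, were not analysed here.

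Computed here: edgeR 4.0.16 in R 4.3.3 (TMM, filterByExpr by group, robust glmQLFit, glmQLFTest) in 1 fit of all 9 libraries with 6 residual degrees of freedom, two-sided, with Benjamini-Hochberg adjustment over 14145 genes. The fit was tested on simulated data. In that simulation far fewer genes changed than were called here in dKO against WT. Alternatives are described in the closing section and include DESeq2 1.42.0. Replicate numbers were taken as names: same-numbered libraries correlated between -0.31 and 0.47, over 0.1 in 2 of 9 pairs. Count ratios use total counts, and their intervals cover counting error only. The limit for 0 counts is taken as 3 counts. A fold against a group at 0 takes the counts of the other group as exact, so their counting error is left out.

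Values in every library are given for called genes with a mean of at least 2 CPM, the 8 largest called changes per comparison and the 3 head-to-head type IV pairs, and for the other called genes too. Lists of genes that make, process, bind or cut collagen are shown by their 3 most significant members in dKO against WT and up to 1 that did not pass. Members named from the marker lists were not picked by this rule. Gata4, for example, had a smaller adjusted p there than Dab2 and is not shown. Genes named because they fell, and values of the ratio of Col4a1 to Col4a2, were chosen after values were seen. Members and lists were chosen with earlier results of these data known. Gene positions and promoters are from RefSeq GRCm38.p6, the assembly of mm10. Protein features that were planned were not computed.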

Additional observations from a re-analysis of the deposited data

How the results depend on the processing

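All alternatives were planned: RLE factors, DESeq2, no filter on low counts, a mean of at least 2 CPM, a replicate block, only the 2 groups compared, each library left out, and other peak rules. Of 62 collagen calls, 54 were kept in direction and call under each of these where they were tested, among them all 24 calls of dKO against WT. The 8 that were lost under at least 1 are Col18a1, Col1a2 and Col5a3 in rescue against dKO, and Col17a1, Col26a1, Col4a2, Col6a3 and Col7a1 in rescue against WT. Other results gained a call. Col27a1 rose in rescue against WT with RLE factors, DESeq2, the replicate block and only the 2 groups compared (edgeR or DESeq2, adjusted p = 0.0094 to 0.0499). Col9a3 fell in rescue against WT with only the 2 groups compared. Col17a1 rose in dKO against WT without WT replicate 3, and Col26a1 fell in rescue against dKO without dKO replicate 3. With a mean of at least 2 CPM, 15 collagen genes were tested, of which 11 rose in dKO against WT, 0 rose and 11 fell in rescue against dKO, and 5 rose and 3 fell in rescue against WT. Most of the difference is in genes no longer tested, but Col18a1 (rescue against dKO, 0.11, adjusted p = 0.15) and Col26a1 (rescue against WT, -0.41, adjusted p = 0.057) were tested and lost their call. With 1 library left out, 1 to 2 collagen genes rose in rescue against dKO, and 2 to 3 fell in rescue against WT when the library was one of rescue or WT. With the replicate block, 23 rose and 1 fell in dKO against WT, 2 rose and 21 fell in rescue against dKO, and 10 rose and 5 fell in rescue against WT. With no filter, the median of all genes in rescue against dKO was -0.12, and 28 of 43 collagen genes rose in dKO against WT. With peaks wider than the median alone, 10 collagen genes had one, with peaks over the start itself 12, and within 5 kb or over the gene body 18. Uncalled log2 fold changes turned sign, with the cause not tested, for 6 genes. Col9a2 in dKO against WT had -0.0025 with RLE factors, -0.0092 with DESeq2, -0.014 with no filter and -0.030 to 0.047 with 1 library left out. With 1 library left out, Col26a1 ran between -0.27 and 0.033 and Col6a5 between -0.58 and 0.14 in dKO against WT. In rescue against WT, Col25a1 ran between -0.77 and 0.95, Col2a1 between -0.093 and 0.0097 and Col8a2 between -0.53 and 0.68. Depth limits the 15 untested genes and the folds given against groups at 0.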
